A study of Rattus norvegicus with 90 samples.

Results

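The transcripts described here are those with the lowest levels in rat kidney 24 h after a high dose of thioacetamide, relative to vehicle, that were not also low in liver or heart. They number 77 of the 40071 transcripts of the deposited files. Each was chosen by a value L, the log2 ratio of mean CPM (a count scaled to its library total, with 1 added) after the high dose to that with vehicle in 1 organ at 24 h, less the median of this ratio over the expressed transcripts of that organ. A member had a kidney L of -1 or less, a liver L above -0.5, a heart L above -0.5, and a kidney vehicle CPM under 20 times the larger of its liver and heart values. The 24 h vehicle and high-dose libraries of all 3 organs therefore chose the members, and their values are given as a description with no test. The 8 h libraries took no part in the choice and carry the tests.

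Male Sprague-Dawley rats were bought at the age of 10 weeks, and their age at injection is not stated. They received 1 intraperitoneal injection of saline vehicle (3 ml/kg) or of thioacetamide at 25 mg/kg (low dose) or 100 mg/kg (high dose). Liver, kidney and heart were taken 8 or 24 h later. There were 18 groups of 5 libraries, 90 in all, and all rats were without food over the final hours before the organs were taken. The 8 h rats were injected in the morning and had no food after it. The 24 h rats were injected in the late afternoon and fed for most of the exposure. Feeding and hour of injection thus differ between the times. Whole kidneys and hearts were powdered before RNA was isolated, so each library averages all cell types of the organ, and fewer cells of a type cannot be told apart from less RNA per cell. Strain, sex, age at purchase and injection route were common to all groups.

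Thioacetamide is a sulfur compound that oxidising enzymes of the liver turn into reactive products, which bind proteins and lipids; it is widely used to injure the liver in rodents. The kidney filters blood and recovers solutes along its tubules, whose segments each express their own transporters and enzymes. The level of a transcript in such a tissue reflects how fast it is made, how fast it is degraded and how many of the cells that make it are present.

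The files identify transcripts by Ensembl identifier and length and do not pair them with genes, so members are described by their values, lengths and identifiers, and no gene list was counted. Of the members, 4 are named by identifier, and the others are described by their length in bases.

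Library totals ran from 16332764 to 36303248 estimated counts, and from 16919321 to 31562820 in the kidney. All 90 of 90 libraries correlated best with another library of their labelled organ. The first liver library labelled 24 h vehicle was left out by the rule because its values nearly duplicate those of a low-dose 8 h liver library. No library of the main 8 h tests was concerned. The low-dose library entered only the alternative liver fit of all 15 libraries of the organ and time.

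Most members were of moderate abundance in vehicle libraries, with their highest 8 h mean in kidney. In 8 h vehicle libraries, 58 of the 77 had their highest mean CPM in kidney, 12 in heart and 7 in liver, and the median ratio of the kidney mean to the larger of the other means was 4.0. Neither value was computed over all transcripts tested, so they do not set the members apart from other transcripts. Every kidney library lay above every liver library for 58 members (75.3%, against 60.6% of the 18597 transcripts tested in the kidney at 8 h) and above every heart library for 51 (66.2%, against 43.2%). The limit of 20 times that the rule sets bears on these ratios. With vehicle at 24 h, 32 members were under 1 CPM in liver, 23 in heart and 1 in kidney. The rule largely fixes the kidney count. With 1 added to the CPM, a transcript far below 1 CPM in vehicle kidneys cannot reach a kidney L of -1. The lowest 24 h vehicle kidney mean of a member was 0.885 CPM. The rule sets no such minimum for vehicle livers or hearts, so these counts cannot compare the organs. The same minimum may bear on the 8 h comparisons above. A member of 5067 bases averaged 604 CPM in 8 h vehicle hearts and 1.56 CPM in the matching kidneys. It was the clearest case of a transcript that is not mainly renal.

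In length the members had a median of 2736 bases (318 to 8861), against 2148 for the transcripts tested in the kidney at 8 h. On the length-scaled TPM unit their median mean level in 24 h vehicle kidneys was 7.16, against 5.84 for those transcripts. Single members lay between 0.286 and 1004 TPM. The most abundant, 1576 bases long, was followed by a member of 318 bases at 504 TPM, one of 1882 bases at 334 TPM, and ENSRNOT00000084782 (3346 bases) at 191 TPM.

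At 24 h, the kidney L of the members ran from -2.33 to -1.0 with a median of -1.24. After the high dose the members retained a median of 38% of their vehicle mean CPM, a lower quartile of 29.4% and a highest value of 52.8%. After the low dose the median was 64.7%. The means were ordered vehicle above low dose above high dose for 64 of the 77 members, and the low-dose mean was at or above the vehicle mean for 11. Both doses were set against the same vehicle libraries, which the rule used.

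**Figure D1:**
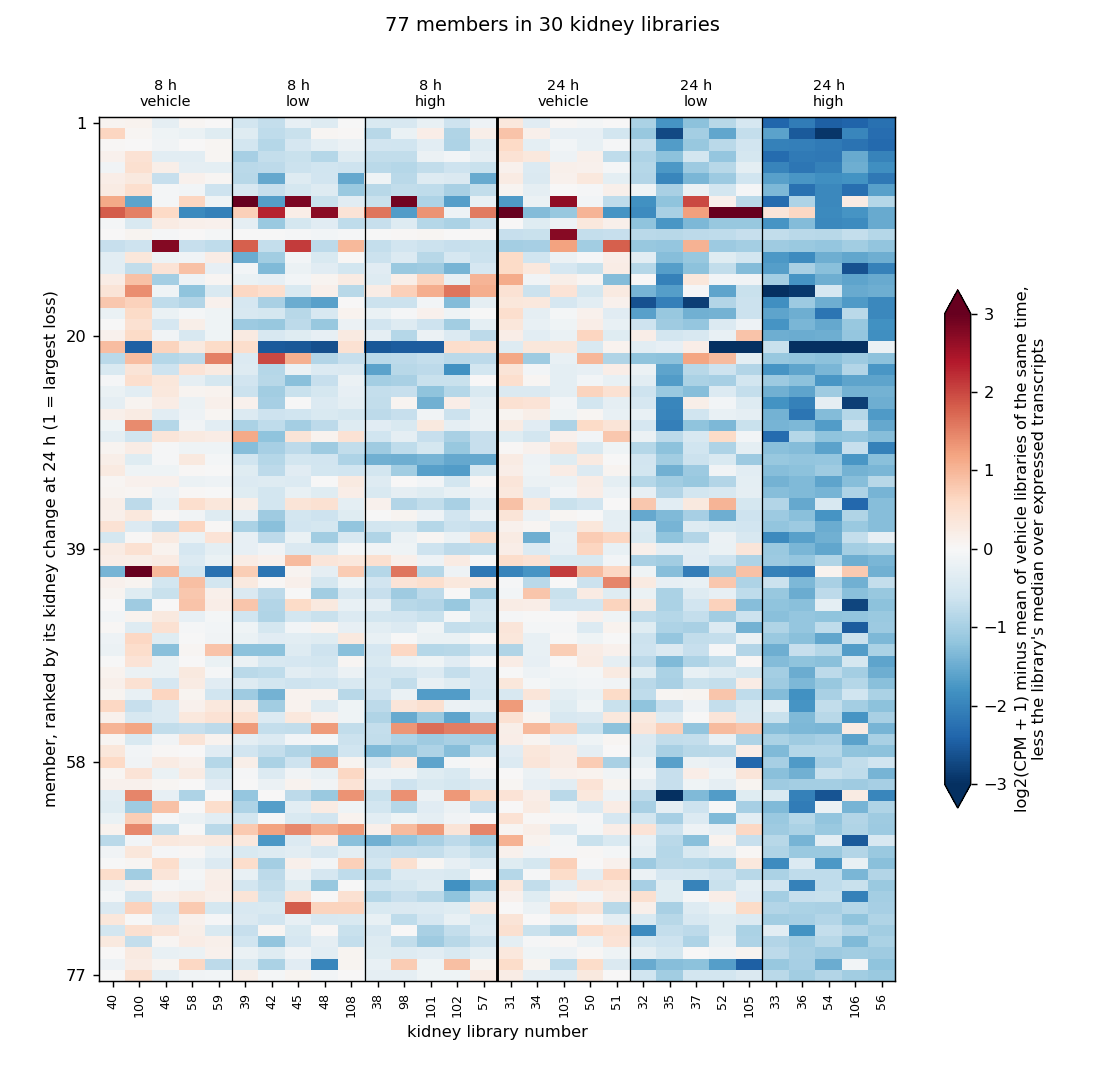
Each row is 1 of the 77 members, ranked by kidney L, and each column is 1 of the 30 kidney libraries, grouped by time and dose; the colour is the difference in log2(CPM + 1) from the mean of the vehicle libraries of the same time, less the library's median over expressed transcripts. The 24 h high-dose block is blue in nearly all rows, which the choice of members fixes, the 24 h low-dose and both 8 h dosed blocks are paler, and a few rows hold single dark red cells where 1 library carries most of the count.

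Every high-dose library lay below every vehicle library at 24 h for 49 of the 77 members, where the same was true of 4.46% of transcripts tested, and every low-dose library for 14 members, against 1.09%. These counts rest on the libraries that chose the members and are not read as results. The members just inside the limit had kidney L of -1.0, with mean CPM of 61.3 with vehicle and 32.4 after the high dose for the nearest. The transcripts just outside it had L of -0.99, with 3.76 and 1.56 CPM for the nearest.

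The member with the lowest kidney L was ENSRNOT00000076640 (2740 bases, L of -2.33). In 24 h kidneys it measured 44.8, 27.1, 37.2, 34.6 and 35.8 CPM with vehicle, 19.5, 10.9, 15.8, 20.5 and 24.7 CPM after the low dose, and 6.23, 8.15, 6.34, 6.01 and 7.67 CPM after the high dose. The 3 groups did not overlap, and the high-dose libraries were close to each other. At 8 h the same transcript measured 32.2, 31.2, 25.6, 31.2 and 32.4 CPM with vehicle and 22.1, 21.1, 24.9, 19.2 and 26.5 CPM after the high dose. These groups overlapped by 1 library, the log2 fold change was -0.41 (SE 0.119), and edgeR's quasi-likelihood test did not call it (adjusted p = 0.0641). A member of 2736 bases ran closely beside it, the pair with the highest r of all pairs of members. Pearson's r was 0.953 over the 20 kidney libraries of the vehicle and high-dose groups. These libraries differ in dose and time, and both members were chosen for a loss at 24 h, so r reflects that choice in part. That member averaged 158 CPM with vehicle and 36.6 CPM after the high dose at 24 h. Over all 2926 pairs of members the median r was 0.21; these libraries include those that chose the members.

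The 4 most abundant members had a kidney L between -1.29 and -1.03. The member of 1576 bases measured 1710, 1201, 1489, 1766 and 1196 CPM with vehicle at 24 h, 913, 640, 821, 910 and 1479 CPM after the low dose, and 614, 682, 674, 1028 and 544 CPM after the high dose. All 5 high-dose libraries lay below the vehicle range, and 1 low-dose library lay inside it. At 8 h its vehicle mean of 1333 CPM stood beside 1089 CPM after the low dose and 1111 CPM after the high dose, with neither difference called (log2 fold changes of -0.34 and -0.26, adjusted p = 0.441 and 0.271, edgeR).

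Some members rest on 1 library. In 6 of the 77, more than 50% of the 24 h vehicle total came from a single kidney library. The member of 1377 bases measured 9.91 CPM in 1 vehicle library and 0 in the median one, and was at 0 in all 5 high-dose libraries. The member of 5900 bases reached 29.1 CPM in 1 vehicle library with a median of 0.588 CPM. When each of the 10 kidney libraries of the rule was left out in turn, 42 members kept a kidney L of -1 or less every time, and the lowest number kept was 62, without the first 24 h vehicle library.

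The rule also shaped what the members do in liver. The liver median that was taken off was 0.68 on the log2 scale, against 0.10 in kidney and -0.02 in heart. A transcript at 0 in all livers thus had a liver L of -0.68 and was left out, and a member needed a liver ratio of CPM + 1 of at least 1.13. All 77 members accordingly had a higher mean CPM in 24 h liver after the high dose than with vehicle. Of the 423 transcripts with a kidney L of -1 or less, 309 had a liver L of -0.5 or less, and 165 of these were under 1 CPM in liver in both groups. The same limits without the medians taken off gave 124 transcripts, of which 55 were members, an alternative chosen after seeing the data. The members are thus not all the kidney transcripts with a loss of this size and a steady liver level.

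In the 8 h libraries, which the rule did not use, the members were on balance lower in the kidney after the high dose. A call is an edgeR adjusted p of no more than 0.01 together with a natural-log fold change of at least 0.60, or 0.866 on the log2 scale. Of the 77, 73 passed the filter on low counts, 63 had a negative log2 fold change, and 4 were called lower and none higher. The background was 1.49% of 18597 transcripts called in either direction, 0.409% lower and 1.09% higher. The median log2 fold change of the tested members was -0.55, beside -0.03 over all transcripts tested. An unadjusted p under 0.05 with a lower level was found for 40 of the 73 (54.8%), against 12.4% of all tested, and with a higher level for 0, against 11.4%. Every high-dose library lay below every vehicle library for 18 of the 77 members, against 3.48% of those tested, and above for 0, against 5.44%. Leaving out 1 library at a time gave 1 to 11 members called, with 11 only without the second vehicle library and 1 to 3 without any other single library, and DESeq2 called 10 and limma 2. The other transcripts with a kidney L of -1 or less gave 26 of 326 called lower and a median of -0.44, and the difference from the members was not tested.

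**Figure D2:**
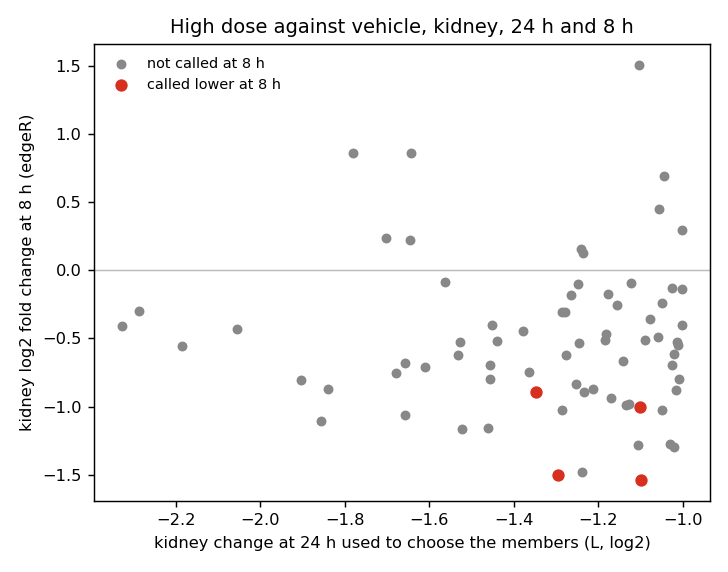
Each point is 1 of the 73 members tested, with the kidney L at 24 h that chose it on the horizontal axis (log2) and the edgeR log2 fold change of the high dose against vehicle in the kidney at 8 h on the vertical axis; red marks the 4 called lower at 8 h. The called members have L between -1.35 and -1.10, and the 4 members of lowest L have 8 h changes between -0.56 and -0.30.

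The member with the clearest loss at 8 h was ENSRNOT00000084782. It measured 586, 389, 524, 641 and 530 CPM in 8 h vehicle kidneys, 349, 294, 364, 375 and 286 CPM after the low dose, and 195, 185, 194, 180 and 178 CPM after the high dose. The 3 groups did not overlap and followed the order of the doses. The log2 fold change after the high dose was -1.50 (SE 0.122, adjusted p = 6.41e-05, edgeR), a 2.86-fold lower mean, and after the low dose -0.72 (SE 0.131, adjusted p = 0.0280), which was not called. At 24 h its high-dose kidneys measured 291, 293, 308, 187 and 293 CPM against 736, 547, 491, 758 and 616 CPM with vehicle, values that the choice of members fixes in direction. It was called at 8 h after the high dose under every alternative tried, each single library left out included.

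The other members called lower in 8 h kidney were of 2678, 2221 and 1856 bases. Leaving out 1 library at a time kept 1 to 3 of the 4 calls, so each such fit lost at least 1 of these members. DESeq2 kept all 4 and limma 2. The member of 2678 bases measured 64.9, 43.5, 59.8, 82.2 and 71.3 CPM with vehicle and 37.2, 31.9, 28.6, 31.6 and 29.7 CPM after the high dose, with no overlap, a log2 fold change of -1.0 (SE 0.149) and an adjusted p of 0.00306 (edgeR). Over the 20 kidney libraries of the vehicle and high-dose groups it varied with ENSRNOT00000084782 at a Pearson's r of 0.902. This was the second highest r of all pairs of members. Both transcripts were chosen for a loss at 24 h and picked here for a loss at 8 h, so a high r across these doses follows in part from the choice. The member of 2221 bases measured 18.2, 19.3, 17.5, 15.5 and 16.8 CPM with vehicle and 7.85, 9.72, 11.3, 7.31 and 10.2 CPM after the high dose, again with no overlap (log2 fold change -0.90, SE 0.146, adjusted p = 0.00517, edgeR). The member of 1856 bases was low throughout, at 3.45 to 5.75 CPM with vehicle and 1.15 to 2.08 CPM after the high dose (log2 fold change -1.54, SE 0.239, adjusted p = 0.00391, edgeR).

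The low dose gave a shift of the same direction at 8 h. Of 73 members tested, 60 had a negative log2 fold change, 1 was called lower and none higher, against a background of 0.218% called in either direction, 0.0425% lower and 0.175% higher. The median was -0.47, beside -0.03 over all transcripts tested, and 28 of 73 were lower at an unadjusted p under 0.05 (38.4%, against 5.4%) and 1 was higher (background 6.51%). For 10 of the 77 every low-dose library lay below every vehicle library, against 1.47% of those tested. The called member was that of 2221 bases, at 6.67, 8.23, 9.93, 8.22 and 10.3 CPM, with a log2 fold change of -1.05 (SE 0.143, adjusted p = 0.00602, edgeR). These values were as low as those after the high dose. Across the members the 8 h means were in the order vehicle, low dose, high dose for 35, while 19 had the low dose lowest. The low and high doses share their vehicle libraries. This call was lost in most fits without 1 library. Without the second vehicle library 2 members were called, 1 lower and 1 higher. Without the fifth low-dose library 1 was called, and every other such fit called 0, as did limma.

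**Figure D3:**
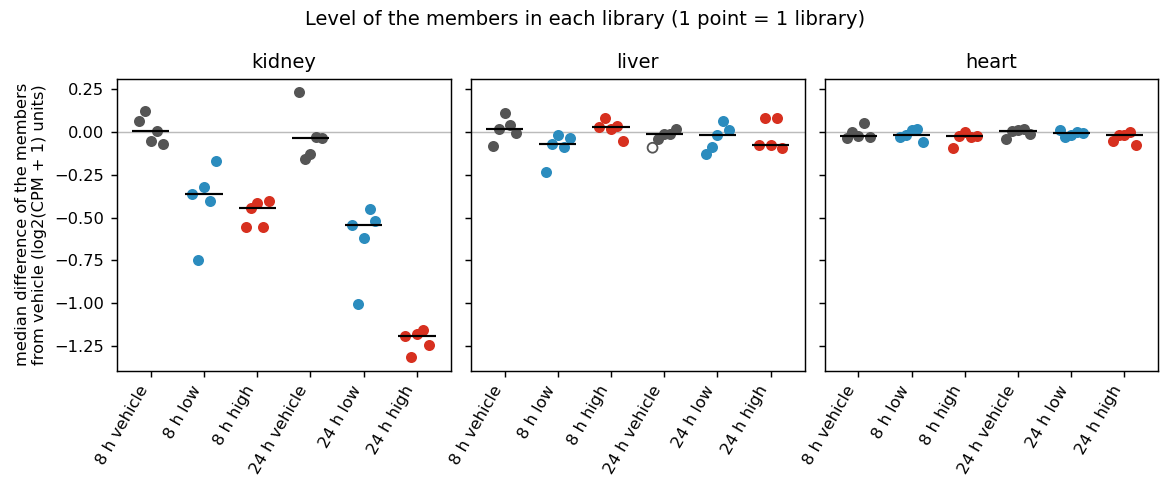
Each point is 1 library, and its height is the median over the 77 members of the difference in log2(CPM + 1) from the vehicle mean of the same organ and time, less the library's own median; the bar is the median of the group, and the open circle is the liver library left out. The kidney panel goes from around 0 with vehicle to between -0.56 and -0.40 after the high dose at 8 h and between -1.32 and -1.16 at 24 h, while liver and heart libraries lie between -0.24 and 0.11. The choice of members fixes the kidney fall at 24 h and keeps the 24 h high-dose liver and heart values above its limit. With vehicle at 24 h, 32 members are under 1 CPM in liver and 23 in heart, where the 1 added to the CPM holds differences near 0.

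Library by library, the median difference of the members in 8 h kidneys ran from -0.07 to 0.12 with vehicle, from -0.56 to -0.40 after the high dose and from -0.75 to -0.17 after the low dose. Neither dosed group overlapped the vehicle libraries. At 24 h the low-dose group ran from -1.0 to -0.45, and 1 library of each low-dose group stood below the other 4. The share of all estimated counts on the genomic intervals that the files list beside the transcripts overlapped between the groups, at 8.05% to 19.5% with vehicle and 7.84% to 16.5% after the high dose at 8 h, and 9.42% to 18.8% and 9.33% to 17.1% at 24 h.

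Kidney libraries numbered above 90 were not spread evenly at 8 h, with 1 in the vehicle group, 3 in the high-dose group and 1 in the low-dose group, while each 24 h kidney group held 1. The labels do not say what the numbers stand for. Among libraries numbered up to 90, with 4 vehicle and 2 high-dose kidneys, 1 member was called, and ENSRNOT00000084782 kept a log2 fold change of -1.60 (adjusted p = 0.00634, edgeR). With the number as a covariate 3 members were called, of which 2 were among the 4 called without it.

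In liver some members were called higher and some lower at 8 h. Of the 77, 58 passed the filter, 9 were called higher and 6 lower, together 25.9%, against a background of 20.2% called in either direction, 12.4% higher and 7.75% lower, so the share called was near that of all transcripts. Their median log2 fold change was 0.15, beside -0.02 over all tested. The 6 called lower of 58 tested are likewise a share near the background. DESeq2 called 7 lower and 10 higher, and leaving out 1 library at a time gave 5 to 7 lower and 7 to 9 higher. Of the alternatives only limma on log2(TPM + 1) called none lower, with 6 higher. The name of a loss in kidney alone describes the 24 h values that chose the members. Every high-dose liver lay above every vehicle liver for 13 of the 77 (background 23.2%) and below for 6 (background 11.5%). The 77 include 19 members that did not pass the filter in liver, while these backgrounds cover only transcripts that did. The shares are therefore not directly comparable. The other transcripts with a kidney L of -1 or less gave 4 higher and 40 lower of 161 tested in 8 h liver, with a median of -0.66.

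ENSRNOT00000067977 (4974 bases) showed the largest called rise in liver. It measured 0.799, 0.842, 0.651, 1.01 and 1.80 CPM in 8 h vehicle livers and 11.9, 10.02, 9.64, 9.18 and 13.3 CPM after the high dose. The groups lay far apart, with a 10.6-fold higher mean and a log2 fold change of 3.22 (SE 0.281, adjusted p = 9.34e-06, edgeR). In 8 h kidneys it measured 25.4, 12.1, 19.8, 32.1 and 30.5 CPM with vehicle and 25.0, 11.6, 12.8, 10.99 and 16.6 CPM after the high dose, which overlapped and were not called (log2 fold change -0.62, SE 0.287, adjusted p = 0.218).

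ENSRNOT00000011344 (2900 bases) measured 2.25, 1.54, 3.04, 0.723 and 1.72 CPM in 8 h vehicle livers and 6.36, 7.73, 7.97, 5.80 and 7.47 CPM after the high dose. Its groups did not overlap, and its log2 fold change was 1.78 (SE 0.296, adjusted p = 0.000581, edgeR). ENSRNOT00000084782, which fell in 8 h kidney, rose in the same livers, from 27.7, 30.9, 21.6, 25.4 and 30.9 CPM to 64.8, 89, 119, 88.7 and 117 CPM (log2 fold change 1.65, SE 0.172, adjusted p = 2.97e-05, edgeR). In the opposite direction, the most abundant member, of 1576 bases, fell in liver from 72.8 to 83.9 CPM with vehicle to 38.4 to 55.6 CPM after the high dose (log2 fold change -0.95, SE 0.114, adjusted p = 7.31e-05, edgeR). At 24 h it was above its vehicle level in liver, at 113 to 120 CPM against 77.7 to 96.0 CPM in the 4 vehicle livers used. A member of 2012 bases was at 0 in all 5 high-dose livers at 8 h, where the vehicle livers held 0.749 to 3.00 CPM.

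**Figure D4:**
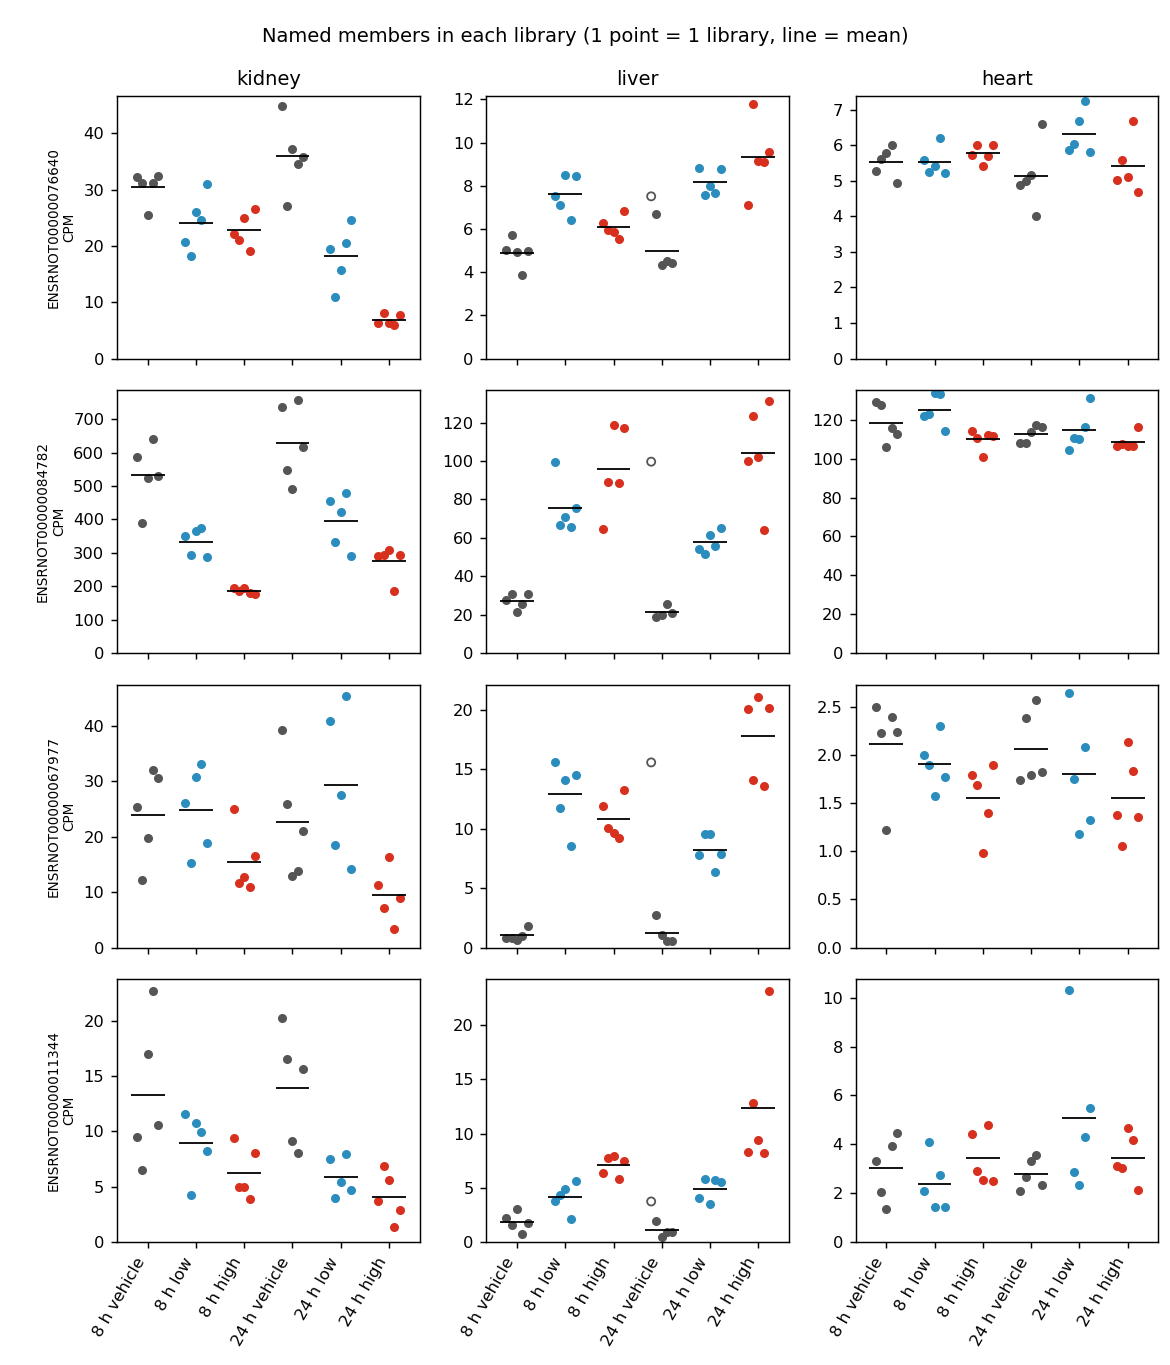
CPM of the 4 named members (rows) in every library of kidney, liver and heart (columns), with 1 point a library, a line at the group mean and the open circle for the liver library left out; each vertical axis starts at 0. ENSRNOT00000084782 falls in kidney from a mean of 534 CPM with vehicle to 186 CPM after the high dose at 8 h and rises in liver from about 27 to 96 CPM, and none of its heart libraries lies above 133.6 CPM.

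In heart, 66 of the members were tested at 8 h after the high dose, and none was called by edgeR, beside 0.0171% of all transcripts tested. At an unadjusted p under 0.05, 5 were lower and 1 higher, against 4.39% and 5.3% of all tested, and DESeq2 and limma also called 0. The median log2 fold change was -0.04, beside 0.00 over all tested. Every high-dose heart lay below every vehicle heart for 1 member, of 4051 bases, against 0.634% of those tested (log2 fold change -0.37, adjusted p = 0.0945).

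**Figure D5:**
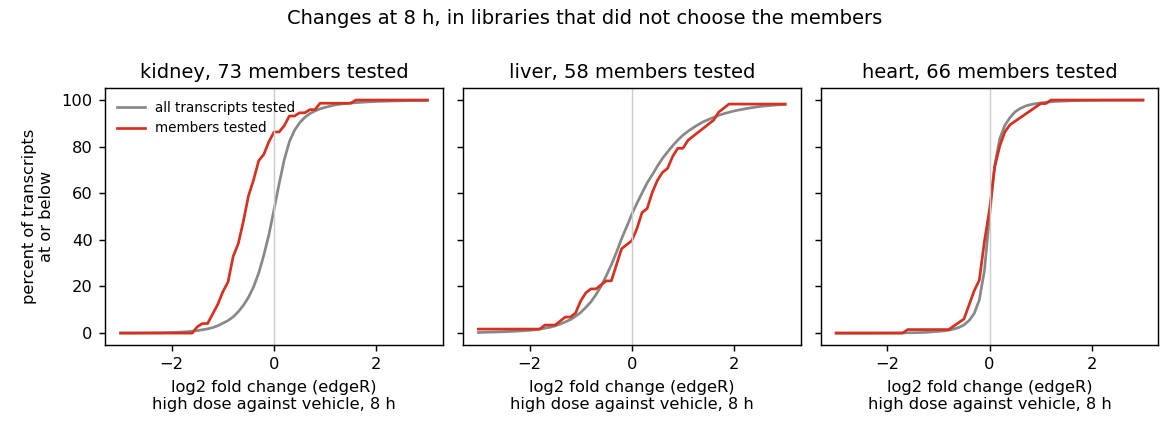
Cumulative percent of transcripts at or below each edgeR log2 fold change of the high dose against vehicle at 8 h, for the members tested (red) and all transcripts tested (grey), in kidney, liver and heart. The red curve lies left of the grey one in kidney, with medians of -0.55 and -0.03, and close to it in liver (0.15 and -0.02) and heart (-0.04 and 0.00).

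The difference between organs was tested directly at 8 h by the interaction of organ and dose over 20 libraries. Each rat gave all 3 organs, the labels do not state which libraries share a rat, and the fit treats the libraries as independent. Between kidney and liver, 16 of 74 members tested had an adjusted p of no more than 0.01 (edgeR), 14 with a lower change in kidney and 2 with a higher one, against a background of 14.4%, with 8.53% lower and 5.86% higher. The median interaction was -0.69 on the log2 scale, beside -0.06 over all tested. Only 58 members passed the filter on low counts in liver alone. Some of the 74 thus entered through their kidney counts, and their liver part rests on counts near 0. Single interactions ran from -8.33 to 8.89, and the median is not a contrast measured well in both organs for every member. None of the 16 passed in a fit of the 12 libraries whose numbers match between the organs with the number as a block, and 4 did without the block. The interaction of ENSRNOT00000084782 was -3.16 (SE 0.218, adjusted p = 6.07e-08), that of ENSRNOT00000067977 was -3.85 (SE 0.426, adjusted p = 5.05e-06) and that of ENSRNOT00000011344 was -2.85 (SE 0.482, adjusted p = 0.000278). For the latter pair it was the liver change that passed its own test. The 2 with a higher change in kidney were the members of 1576 and 2012 bases, both called lower in liver.

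Between kidney and heart, 3 of 75 members tested passed, all with a lower change in kidney, against a background of 0.855% in either direction, 0.182% lower and 0.673% higher. They were ENSRNOT00000084782, at -1.37 (SE 0.142, adjusted p = 1.11e-05, edgeR), and members of 2898 and 2110 bases, at -1.05 (SE 0.186, adjusted p = 0.00343) and -0.71 (SE 0.121, adjusted p = 0.00252). The median interaction was -0.58, beside -0.03 over all tested, and 25 of 75 were lower at an unadjusted p under 0.05 (33.3%, against 8.14%) with 0 higher (against 7.16%). Only 66 members passed the filter in heart alone, so some of the 75 have a heart part that rests on counts near 0. In the 12 libraries with matching numbers, 0 passed with the number as a block and 1 without it. Without 1 kidney library at a time 3 to 8 members passed, the 8 without the second vehicle library. ENSRNOT00000084782 was the 1 member that passed the test in kidney, in liver and in both organ interactions at 8 h.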

How the data were processed

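The labels give strain, organ, time and dose, and samples were grouped by them. Per the labels and the methods, poly-A libraries were sequenced from both ends and quantified by the authors with kallisto 0.42.2 (submitters' processing notes) against Rnor_6.0. The deposited files hold estimated counts and TPM for each transcript, without normalization between libraries in the counts; TPM is scaled by the authors' effective length. Estimated counts were rounded, the genomic-interval rows were set aside, and the 8 h contrasts, 5 against 5 libraries, were tested with edgeR 4.0.16 (filterByExpr, TMM, quasi-likelihood), Benjamini-Hochberg adjusted over all transcripts tested. kallisto divides reads among similar transcripts, so isoforms and paralogs are uncertain. Tests used R 4.3.3, DESeq2 1.42.0 and limma 3.58.1 on log2(TPM + 1) as alternatives, with other filters, scalings and libraries. On simulated kidney counts, 34% of transcripts changed by a log2 fold of 1 and 73% of those changed by 2 were called. Each group of 1 organ comes from 5 rats by the methods, and the organs were taken from the same rats. The members, gene lists and tests were chosen with earlier results of these data known. A rule set which members could be described: the 12 lowest kidney L, the 12 highest TPM, members called at 8 h, and those nearest the limits. Not all of these are described. Identifiers were printed for at most 2 that fell and 2 that rose. These were the lowest L, the smallest adjusted p in 8 h kidney and the largest 2 rises in 8 h liver. The members resting on 1 library, of 5067, of 2012 and of 4051 bases, were picked after their values were seen. The marker and pathway lists fixed for this work are by gene symbol, and none could be matched to the transcripts. Count totals give the depth; counts near 0 carry the widest error.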

Additional observations from a re-analysis of the deposited data

Results flagged for a closer look

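ENSRNOT00000076640 measured 25.6 CPM in the third 8 h vehicle kidney library, below the other vehicle libraries, which lay between 31.2 and 32.4 CPM. ENSRNOT00000084782 measured 187 CPM in the fourth 24 h high-dose kidney library, while the others lay between 291 and 308 CPM. A gap of this size in a group of 5 is met by chance in about 1 of 20 groups. Among the 77 members, 15 had such a library in the 8 h vehicle kidneys, 10 in each high-dose group of kidneys and 4 to 7 in the other kidney groups.

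The effect of the high dose at 8 h differed between kidney and liver for 16 members and between kidney and heart for 3 members, by the organ-by-dose interaction test of edgeR at an adjusted p of no more than 0.01.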

How the results depend on the processing

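The number of members was 77 by the rule as given, 270 with 0.1 in place of 1 added to the CPM, 120 with CPM on TMM-scaled totals and 124 with the organ medians not taken off (chosen after seeing the data); 70, 71 and 55 of the 77 were among them. Leaving out 1 kidney library at a time gave 67 to 90.

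In 8 h kidney after the high dose, DESeq2 called 10 members, limma on log2(TPM + 1) 2, a fit of all 15 libraries of the organ and time 7, and the libraries numbered up to 90 alone 1, against 4. Leaving out 1 library at a time gave 1 to 11, the highest without the second vehicle library, which was the only one numbered above 90 in its group. After the low dose, DESeq2 called 3, limma 0 and the covariate for library number 2, against 1. Leaving out 1 library gave 0 in most fits and at most 2, the 2 being 1 lower and 1 higher. In liver limma called 6, all higher and none lower, and DESeq2 17 (10 higher, 7 lower), against 15 (9 higher, 6 lower). Leaving out 1 library gave 12 to 15, with 5 to 7 lower and 7 to 9 higher. The kidney and heart interaction gave 6 with DESeq2 and 3 to 8 without 1 library, against 3, and the kidney and liver interaction gave 13 to 18, against 16. In heart every fit gave 0.

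ENSRNOT00000067977 had a log2 fold change near 0 after the low dose in 8 h kidney (0.01). Leaving out 1 library at a time gave -0.144 to 0.151, below 0 in 5 fits (-0.144, -0.0497, -0.0081, -0.0734 and -0.0955), and the libraries numbered up to 90 alone gave -0.0612; it was not called in any of them. The cause of these changes was not tested.

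The labels give no replicate number. Library numbers step by 30 from liver to kidney and from kidney to heart, and 4 vehicle and 2 high-dose pairs at 8 h match in this way. The labels do not say that such numbers mark 1 rat, and the deviations of matching libraries from their group means correlated at -0.0173 to 0.247 (kidney with liver) and -0.00797 to 0.0809 (kidney with heart) over transcripts. With the number as a replicate block (chosen after seeing the data), 0 members passed the kidney and liver interaction and 0 the kidney and heart interaction; without the block in the same 12 libraries, 4 and 1 did. The interaction of ENSRNOT00000084782 was -3.16 (adjusted p = 0.0169) with the block and -3.21 (adjusted p = 0.00167) without it. No paired analysis was possible because the groups of 1 organ come from different rats, for the comparisons within an organ. Calls are limited by 5 libraries a group and by low counts: 4 members in kidney, 19 in liver and 11 in heart did not pass the filter at 8 h and have no test.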
